A study of Schizosaccharomyces pombe with 12 samples.

Results

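Intergenic non-coding RNAs of the fission yeast Schizosaccharomyces pombe, transcripts annotated between protein-coding genes, were followed in strains that lack the Mediator subunit Med20, the nuclear exosome subunit Rrp6, or both. They were taken as every table entry of type ncRNA whose product text holds the words "intergenic RNA", with 10 listed ncRNAs left out, 3 of which carry those words. The words were matched without regard to measured values. In the authors' deposited table of the double mutant against WT, all 10 left out were called (DESeq adjusted p under 0.05). Of them 7 were higher and 3 lower, where 8.59% and 6.71% of all genes were. The rule left 439 intergenic ncRNAs of 6888 genes in all, of which 438 have a row in the double-mutant table. The product text of 110 of them adds that the transcript may be an alternative untranslated region (UTR) of a neighbouring gene, and 1 is named Omt3. The label fits the RefSeq annotation in part: of the 416 that RefSeq lists, 71 overlapped a protein-coding gene on the same strand, 140 overlapped one on the opposite strand, and 218 overlapped none. No source used here says whether reads were counted by strand, so an intergenic ncRNA that overlaps another gene may share reads with it.

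The nuclear exosome is a protein complex that trims and degrades RNA from its 3′ end, and Rrp6 is the exonuclease that works with it in the nucleus. Many transcripts from between genes are made by RNA polymerase II, receive a poly(A) tail and are then destroyed by this complex, so that cells without Rrp6 are commonly used to make them visible. Mediator is the complex that links transcription factors to RNA polymerase II, and Med20 belongs to its head module.

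All strains were haploid cells grown in YEA medium at 30 degrees and harvested in log phase, with 3 samples each. The med20Δ strain (h+ leu1-32 ura4-D18) carries a NAT marker at med20. The rrp6Δ strain (h-, with Leu1-32, His2 and Ura4 DS/E markers) carries KanMx6 at rrp6 and a ura+ marker in the centromeric repeat Otr1R. The med20Δ rrp6Δ double mutant (leu1-32 ura4-D18) carries both replacements, and the wild type (WT) is h- L972. For samples B and C of these strains the labels count the names on (D19 and D20, L973 and L974). The strains therefore differ in mating type and nutritional markers as well as in med20 and rrp6, and effects of these cannot be told apart. Nothing in the labels ties the samples of a strain to separate cultures, so each p-value rests on the spread among samples that may be technical repeats. Poly(A)-selected RNA was sequenced, so a level depends both on how much of an RNA there was and on how much of it was polyadenylated.

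The authors deposited strain means (counts divided by a size factor per library), and the whole counts of the single libraries were recovered from the digits of those means, giving 7162699 to 10582905 recovered counts per library. Means above 20000 were not split, so these sums leave out the most abundant RNAs and are not the full depth. Libraries are numbered within a strain in the order found and do not follow the replicate letters of the labels. Values per library are on 1 common scale (normalised counts), while each deposited table has a scale of its own. The deleted genes matched their labels: med20 had 2.12 to 5.36 normalised counts in med20Δ libraries and 17.2 to 25.6 in double-mutant libraries, against 581 to 627 in WT libraries, and rrp6 had 0.714 to 2.47 in rrp6Δ libraries and 0.749 to 1.60 in double-mutant libraries, against 944 to 1831 in WT libraries. The ura4 marker did not match: the med20Δ libraries, labelled ura4-D18, held 1785 to 2318 normalised counts of ura4, against 1735 to 2313 in WT libraries, while the double-mutant libraries, which carry the same label, held 1.60 to 4.49. In each strain 1 library stood apart on the first component of the within-strain differences, which held 48.5% of that variation. These were med20Δ library 1, rrp6Δ library 2, double-mutant library 2 and WT library 1. They lay on the same side of it, at -23.1, -24.0, -29.1 and -33.6, and every other library lay between 7.34 and 18.9. The farthest library of each strain was picked, so 1 per strain was fixed by that rule. What these libraries share was not tested, and limma had no term for it.

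In RefSeq (build ASM294v3) 6 of the intergenic ncRNAs overlap genes of snoRNAs, small nucleolar RNAs that guide the modification or cleavage of ribosomal RNA, on the same strand, and RefSeq types these 6 transcripts as snoRNA. Of these, SPNCRNA.901, SPNCRNA.814 and SPNCRNA.1394 rose without Rrp6. They are shown here because reads in the shared bases can be counted for both annotations. Letters run 5′ to 3′ on the minus strand. Capitals mark the bases of the snoRNA gene. SPNCRNA.901 is whole (chrI:3316321-3316601, with snR91), and SPNCRNA.814 (chrI:2330358-2330657, with snR98) and SPNCRNA.1394 (chrII:884096-884395, with snR3) are shown over 300 bases.

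SPNCRNA.901: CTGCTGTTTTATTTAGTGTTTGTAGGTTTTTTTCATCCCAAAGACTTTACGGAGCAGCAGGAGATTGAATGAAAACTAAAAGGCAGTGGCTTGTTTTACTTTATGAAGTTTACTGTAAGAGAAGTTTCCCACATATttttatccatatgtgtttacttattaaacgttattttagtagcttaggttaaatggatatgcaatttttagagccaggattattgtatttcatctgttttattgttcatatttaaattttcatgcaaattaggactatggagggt

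SPNCRNA.814: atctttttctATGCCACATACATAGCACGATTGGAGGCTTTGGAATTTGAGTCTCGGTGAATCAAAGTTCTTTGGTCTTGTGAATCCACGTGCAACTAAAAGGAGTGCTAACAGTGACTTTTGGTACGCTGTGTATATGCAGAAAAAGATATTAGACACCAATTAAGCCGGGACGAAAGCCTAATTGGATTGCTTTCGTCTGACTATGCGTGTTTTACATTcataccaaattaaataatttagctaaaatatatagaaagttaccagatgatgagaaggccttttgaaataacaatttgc

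SPNCRNA.1394: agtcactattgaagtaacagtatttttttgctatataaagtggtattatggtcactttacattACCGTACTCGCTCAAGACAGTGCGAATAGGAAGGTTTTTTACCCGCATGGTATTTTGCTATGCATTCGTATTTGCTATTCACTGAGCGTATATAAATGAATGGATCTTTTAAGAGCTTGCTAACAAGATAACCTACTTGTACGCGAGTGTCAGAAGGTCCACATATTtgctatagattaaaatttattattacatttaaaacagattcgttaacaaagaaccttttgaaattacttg

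SPNCRNA.901 shares 136 of its 281 bases with snR91, SPNCRNA.814 shares 211 of its 487 with snR98, and SPNCRNA.1394 shares 167 of its 429 with snR3. In each, the transcript reaches past the 3′ end of the snoRNA.

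**Figure D1:**
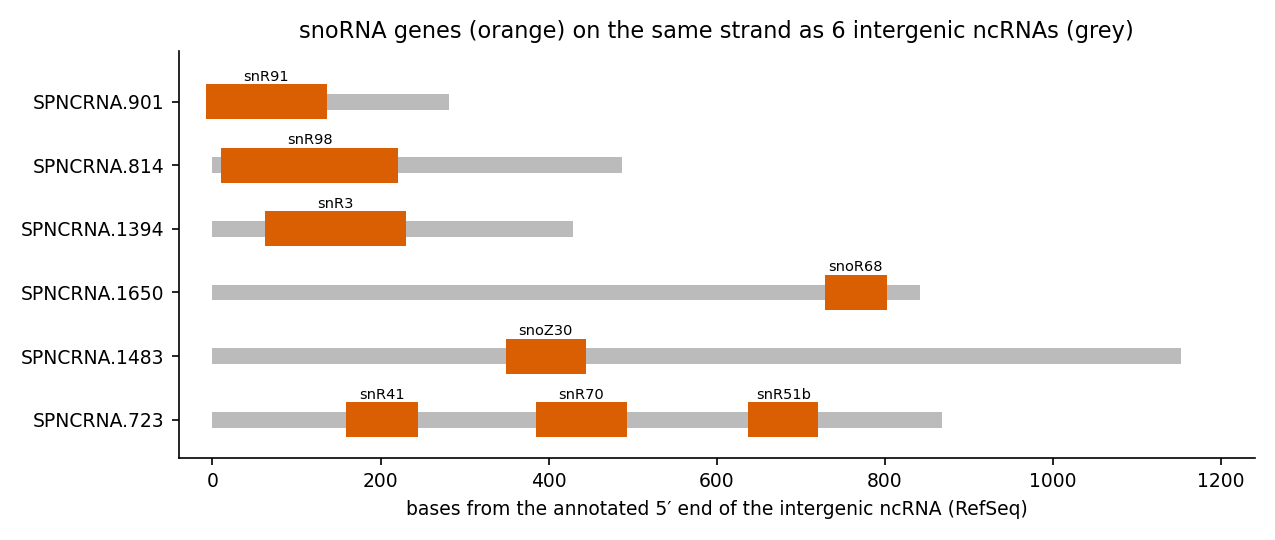
Position of the snoRNA genes that RefSeq annotates on the same strand (orange) along 6 intergenic ncRNAs (grey); the x axis gives bases from the annotated 5′ end. In SPNCRNA.901, SPNCRNA.814 and SPNCRNA.1394 the snoRNA lies in the 5′ part and the transcript runs on past its 3′ end.

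Another sequence comes from the ribosomal DNA. SPNCRNA.1094 (232 bases) and SPNCRNA.1095 (520 bases) lie on the minus strand of chromosome III, 527 and 788 bases upstream of SPRRNA.44, the ribosomal RNA gene at chrIII:21289-23130. SPNCRNA.1094 is shown whole (chrIII:23658-23889, minus strand, no capitals), since these 2 transcripts had the highest WT levels per kilobase of the 416 with a RefSeq length.

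SPNCRNA.1094: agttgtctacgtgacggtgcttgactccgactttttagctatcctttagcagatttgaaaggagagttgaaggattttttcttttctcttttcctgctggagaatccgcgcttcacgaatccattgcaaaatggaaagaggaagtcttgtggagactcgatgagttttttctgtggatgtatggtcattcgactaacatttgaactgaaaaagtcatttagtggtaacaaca

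Most intergenic ncRNAs had few reads. Normalised counts are not divided by length, so levels of different transcripts are compared per kilobase only. The median was 32.7 normalised counts in med20Δ, 59.0 in rrp6Δ, 67.5 in the double mutant (436 recovered there) and 34.2 in WT. In WT the quartiles were 13.4 and 75.5, 94 of 439 were under 10 and 6 were at 1000 or more. SPNCRNA.964, a possible UTR, had 7464, 6425 and 6254 normalised counts in med20Δ libraries, 4421, 6368 and 5239 in rrp6Δ libraries, 3734, 8420.4 and 4639 in double-mutant libraries, and 6262, 4805 and 4927 in WT libraries. Its strains overlapped throughout. Per kilobase of annotated length, the WT levels of SPNCRNA.1094 and SPNCRNA.1095 were 6434 and 6017 normalised counts, above the 3303 of SPNCRNA.964. SPNCRNA.111, which lies upstream of ste11, the gene of the transcription factor that starts sexual differentiation, had 817 per kilobase, and SPNCRNA.1443, SPNCRNA.1097 and SPNCRNA.1115 had 583, 415 and 179. No length was at hand for SPNCRNA.1531 and the other transcripts without a RefSeq match. The other 4 of the 8 with the most normalised counts in WT were SPNCRNA.1443, SPNCRNA.1531, SPNCRNA.1097 and SPNCRNA.1115, with WT means of 1631 ± 226, 1099 ± 642, 747 ± 105 and 709 ± 430.4 normalised counts (SD, n = 3). None of these 4 was called in any comparison against WT.

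Intergenic ncRNAs were raised in rrp6Δ. In the authors' deposited table of rrp6Δ against WT (DESeq, Benjamini-Hochberg adjusted p under 0.05 over all genes), 93 of 439 were higher, or 21.2%, where 4.97% of all genes were higher. SPNCRNA.111 alone was lower, where 1.0% of all genes were. The median log2 fold change in the authors' deposited table was 0.76 for intergenic ncRNAs, 0.58 for antisense ncRNAs, 0.56 for the other ncRNAs and -0.12 for protein-coding genes, and the median of all genes was -0.04. By the same deposited calls, 15.6% of antisense ncRNAs, 11.5% of other ncRNAs and 1.62% of protein-coding genes were higher. The 93 that rose had fold changes from 2.14 to 24.7 in the authors' deposited table, with a median of 3.73, and 41 of them had 4-fold or more. limma on the recovered counts called 96 of 381 tested higher, where 6.41% of all 5947 tested genes were higher, and 1 lower, where 1.41% of them were. By limma 23.0% of antisense ncRNAs and 26.4% of the other ncRNAs were higher, against 25.2% of the intergenic ones. The number of 96 fell to 54 without rrp6Δ library 1 and to 63 without rrp6Δ library 3, and was 79 without the 4 libraries that stood apart.

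**Figure D2:**
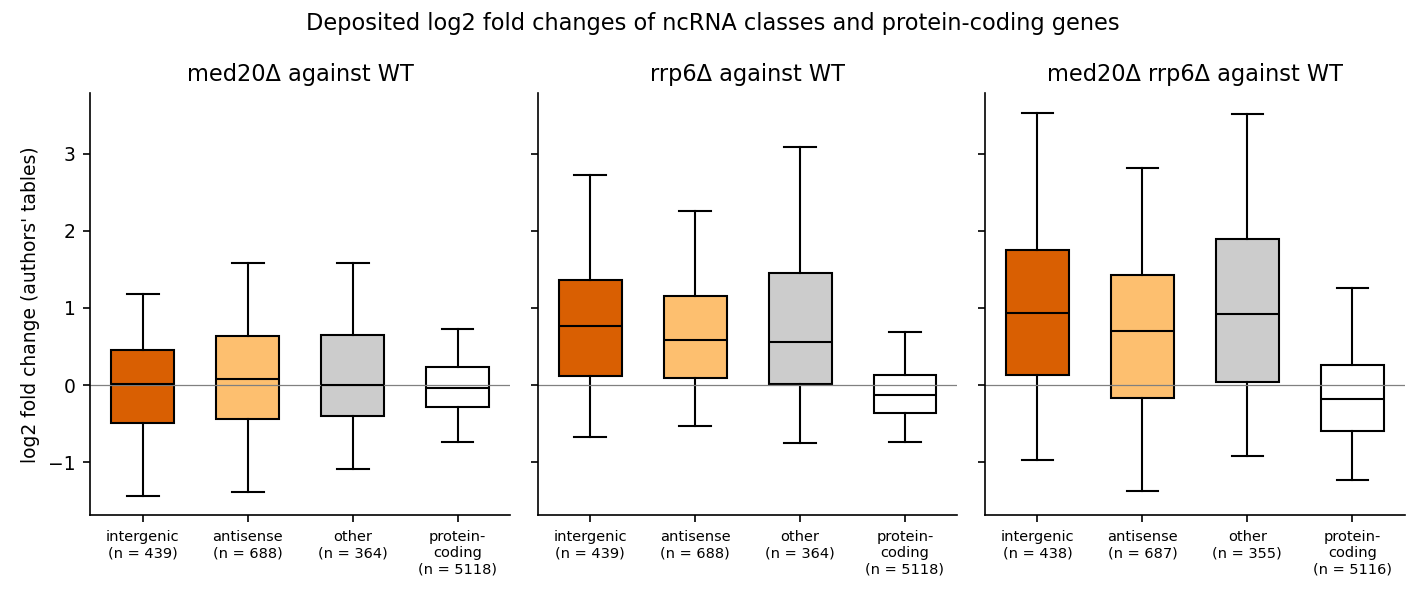
Log2 fold changes in the authors' deposited tables for intergenic ncRNAs, antisense ncRNAs, other ncRNAs and protein-coding genes in each mutant against WT; boxes span the quartiles with the median as a line, and whiskers reach the 5th and 95th percentiles. The median of the intergenic ncRNAs is 0.01 in med20Δ, 0.76 in rrp6Δ and 0.94 in the double mutant.

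Among called transcripts whose deposited rrp6Δ mean was at least 50, SPNCRNA.1651 had the highest fold. SPNCRNA.1394, with a higher fold, has a lower mean there and is described with the snoRNA-bearing transcripts. SPNCRNA.1651 had 281, 161 and 135 normalised counts in rrp6Δ libraries, against 4.75, 12.4 and 7.71 in WT libraries, so that each rrp6Δ library lay above every WT library, and the authors' deposited table gives 23.2-fold (DESeq adjusted p = 7.43e-07). Its nearest upstream gene, cox17, which encodes a copper chaperone for cytochrome c oxidase, lies 343 bases away on the opposite strand and had a log2 fold change of 0.21 in the authors' deposited table (DESeq adjusted p = 0.936). SPNCRNA.1436 had 393, 242 and 249 normalised counts in rrp6Δ libraries, against 6.65, 21.04 and 12.1 in WT libraries. The authors' deposited table puts it at 22.2-fold (DESeq adjusted p = 3.76e-13).

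The 3 snoRNA-bearing transcripts printed above were all called higher, and for 2 of them the snoRNA was called higher too. SPNCRNA.901 had 1870.2, 1949 and 1592 normalised counts in rrp6Δ libraries, against 74.0, 88.0 and 98.0 in WT libraries. In the authors' deposited table it was 20.8-fold higher (DESeq adjusted p = 2.67e-29) and snR91 itself was 21.3-fold higher (DESeq adjusted p = 2.07e-29), with rrp6Δ means of 2026 and 1994, so the same reads can stand in both rows. SPNCRNA.814 had 526, 319.8 and 449 normalised counts in rrp6Δ libraries, against 4.75, 26.8 and 28.6 in WT libraries. It was 21.5-fold higher in the authors' deposited table (DESeq adjusted p = 7.7e-19), and snR98 was 20.5-fold higher there (DESeq adjusted p = 1.68e-16). SPNCRNA.1394 had 27.1, 71.7 and 22.5 normalised counts in rrp6Δ libraries, against 1.90, 1.91 and 1.10 in WT libraries, where each WT library holds 1 or 2 counts and 1 is the lowest count a library shows. Its 24.7-fold rise in the authors' deposited table (DESeq adjusted p = 0.0206) therefore rests on a WT level near the floor, and snR3 was not called there (DESeq adjusted p = 0.0943). Of the other 3 snoRNA-bearing transcripts, SPNCRNA.1650, SPNCRNA.1483 and SPNCRNA.723, none was called in rrp6Δ, and SPNCRNA.1650 was called in the double mutant (log2 fold change 1.83 in the authors' deposited table, DESeq adjusted p = 0.0014).

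Another 4 completed the 8 largest rises with an rrp6Δ mean of at least 50. SPNCRNA.1114 had 502, 148 and 451 normalised counts in rrp6Δ libraries, against 3.80, 24.9 and 31.9 in WT libraries. SPNCRNA.893 had 3140.2, 703 and 1629.7 in rrp6Δ libraries, against 67.4, 148 and 169.6 in WT libraries. In both, rrp6Δ library 2 and WT library 1 were the lowest of their strains, and both are libraries that stood apart. The authors' deposited table gives 18.2-fold for SPNCRNA.1114 (DESeq adjusted p = 0.000633) and 14.2-fold for SPNCRNA.893 (DESeq adjusted p = 0.0295). SPNCRNA.1107 had 112, 94.8 and 68.4 normalised counts in rrp6Δ libraries, against 5.70, 15.3 and 3.30 in WT libraries. SPNCRNA.1327 had 482, 253 and 314 in rrp6Δ libraries, against 40.8, 20.1 and 44.1 in WT libraries. They were 11.3-fold and 9.99-fold higher in the authors' deposited table (DESeq adjusted p = 9.48e-11 and 8.1e-07), and in none of the 8 did the rrp6Δ and WT libraries overlap. These 8 were picked among called transcripts. With a mean of at least 10, rrp6Δ lay wholly above WT for 174 of 374 intergenic ncRNAs and 858 of all 5893 genes. It lay wholly below for 12 and 713.

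**Figure D3:**
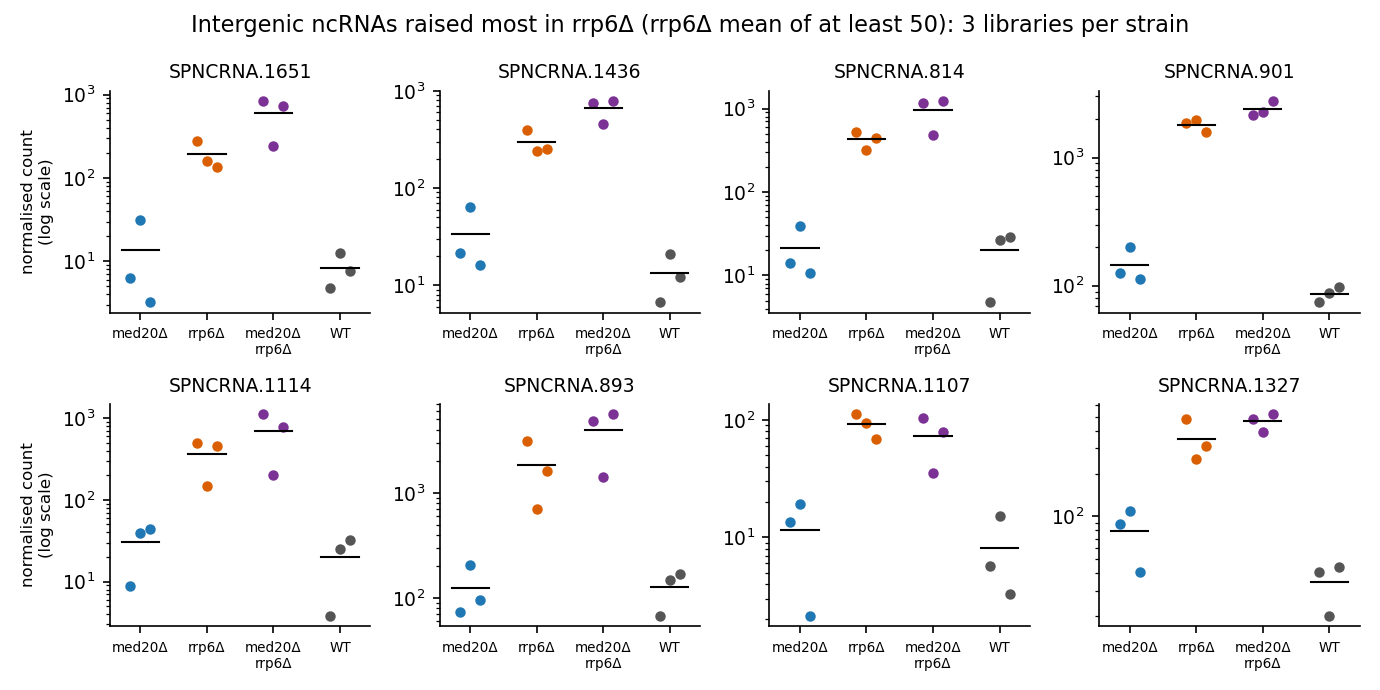
Normalised counts (log scale) of the 8 intergenic ncRNAs with the largest rise in rrp6Δ for which the deposited rrp6Δ mean is at least 50; each point is 1 of 3 libraries, in med20Δ, rrp6Δ, the double mutant and WT, and the line is the mean. For SPNCRNA.901 the rrp6Δ libraries sit between 1592 and 1949, against 74.0 to 98.0 in WT.

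The transcripts of the ribosomal DNA also rose. SPNCRNA.1094 had 5155, 6499.8 and 7503 normalised counts in rrp6Δ libraries, against 1638, 1048 and 1792 in WT libraries, and SPNCRNA.1095 had 10916, 21112 and 11659 in rrp6Δ libraries, against 4569, 1841 and 2976 in WT libraries. They were 4.28-fold and 4.65-fold higher in the authors' deposited table (DESeq adjusted p = 2.06e-08 and 0.00506), and in the double mutant 14.9-fold and 26.7-fold higher (DESeq adjusted p = 7.71e-06 and 9.26e-13), with authors' deposited means of 27086 and 101412 in the double mutant against 1813 and 3799 in WT. The counts of single double-mutant libraries were not recovered for these 2 transcripts. The ribosomal RNA gene downstream, SPRRNA.44, was at 0.951-fold in rrp6Δ (DESeq adjusted p = 1) and 2.51-fold in the double mutant (DESeq adjusted p = 0.0168) in the authors' deposited tables. Ribosomal DNA is repeated, so reads can belong to any copy.

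SPNCRNA.111 was the only intergenic ncRNA called lower in rrp6Δ. It had 1281, 1799.5 and 1339 normalised counts in rrp6Δ libraries, against 3719, 2094 and 3438 in WT libraries, with no overlap. The authors' deposited tables put it at 0.499-fold in med20Δ (DESeq adjusted p = 0.0888), 0.478-fold in rrp6Δ (DESeq adjusted p = 0.035) and 0.392-fold in the double mutant (DESeq adjusted p = 0.0058), 3 comparisons that share the WT libraries. In RefSeq SPNCRNA.111 spans 3776 bases and overlaps a protein-coding gene on the opposite strand, with which it may share reads. Its upstream neighbour ste11 was not called in any of these tables. Its downstream neighbour the4, 3311 bases away on the same strand, had log2 fold changes of -2.05 in med20Δ (DESeq adjusted p = 0.000926), -1.03 in rrp6Δ (DESeq adjusted p = 0.0515) and -1.81 in the double mutant (DESeq adjusted p = 0.00255) by the authors' deposited tables.

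In the double mutant, most of the intergenic ncRNAs that were called were again higher. Against WT, the authors' deposited table has 438 of them, and 111 of these were higher, or 25.3%, where 8.59% of all genes were higher, and 9 were lower, where 6.71% of all genes were. The median log2 fold change in the authors' deposited table was 0.94 for intergenic ncRNAs, 0.70 for antisense ncRNAs, 0.92 for the other ncRNAs and -0.18 for protein-coding genes. The 111 had a median fold change of 4.86 and a highest of 87.9 in the authors' deposited table, and in 3 of them WT was at the floor of 1 count per library, where the fold is a lower bound. limma called 155 of 381 higher, where 15.5% of all tested genes were, and 18 lower, where 14.7% of them were, and the 18 fell to 11 without double-mutant library 1. Without the snoRNA-bearing and ribosomal DNA transcripts the deposited calls were 105 higher in the double mutant and 88 higher in rrp6Δ.

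SPNCRNA.727 rose most in the double mutant. It had 3252, 1812 and 2618 normalised counts in double-mutant libraries, 117, 107 and 101 in rrp6Δ libraries, 47.3, 214 and 56.7 in med20Δ libraries, and 19.9, 27.7 and 39.7 in WT libraries. Every double-mutant library lay above every library of the other strains, while the med20Δ and rrp6Δ libraries overlapped. The authors' deposited tables give 87.9-fold in the double mutant (DESeq adjusted p = 5.77e-24) and 3.73-fold in rrp6Δ (DESeq adjusted p = 0.000118). SPNCRNA.1651 had 849, 239.6 and 733 normalised counts in double-mutant libraries and was 73.2-fold above WT in the authors' deposited table (DESeq adjusted p = 3.38e-06). SPNCRNA.1394, SPNCRNA.1436, SPNCRNA.814, SPNCRNA.1114, SPNCRNA.808 and SPNCRNA.893 made up the rest of the 8 largest rises with a double-mutant mean of at least 50, between 30.8-fold and 58.3-fold in the authors' deposited table. SPNCRNA.808, a 290-base transcript between rpc2, which encodes a subunit of RNA polymerase III, and mug133, was the least even of them. It had 3944, 396 and 3212 normalised counts in double-mutant libraries, 1017, 218 and 726 in rrp6Δ libraries, and 1.90, 125 and 98.0 in WT libraries. Its lowest value in each of these strains came from a library that stood apart.

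The 9 lower in the double mutant were SPNCRNA.111, SPNCRNA.916, SPNCRNA.1246, SPNCRNA.1278, SPNCRNA.1334, SPNCRNA.1379, SPNCRNA.1444, SPNCRNA.1510 and SPNCRNA.1609, between 0.179-fold and 0.392-fold in the authors' deposited table. SPNCRNA.1444 had 12.8, 21.7 and 12.1 normalised counts in double-mutant libraries, against 30.4, 58.3 and 71.6 in WT libraries, without overlap (0.291-fold in the authors' deposited table, DESeq adjusted p = 0.0173). With a mean of at least 10, 28 of 387 intergenic ncRNAs and 1281 of all 5998 genes lay wholly below WT in the double mutant. Of the 9, SPNCRNA.916, SPNCRNA.1278, SPNCRNA.1334 and SPNCRNA.1609 were also called lower in med20Δ, a comparison with the same WT libraries.

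Setting the double mutant against med20Δ asks what loss of Rrp6 does in cells that already lack Med20. limma called 137 of 381 intergenic ncRNAs higher, where 9.21% of all tested genes were higher, and 0 lower, where 4.76% of all tested genes were, with 205 at an unadjusted p under 0.05 in either direction, where 1758 of all 5947 tested genes were. The median log2 difference was 0.94 for intergenic ncRNAs and -0.15 for protein-coding genes. The largest were SPNCRNA.1651 (log2 difference 5.73 ± 0.67, SE, limma adjusted p = 0.000108), SPNCRNA.814 (5.53 ± 0.61, limma adjusted p = 7.67e-05) and SPNCRNA.808 (5.22 ± 1.34, limma adjusted p = 0.0213). SPNCRNA.727, SPNCRNA.893 and SPNCRNA.1436 followed with log2 differences between 4.46 and 4.89. The number called higher fell to 71 without med20Δ library 3 and to 70 without double-mutant library 1, and was 156 without the 4 libraries that stood apart, where 3 were called lower.

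The comparison of rrp6Δ with WT and that of the double mutant with med20Δ share no library, and each sets a strain without Rrp6 against one that has it. Of the 96 that limma called higher in rrp6Δ, 76 were also called higher in the double mutant against med20Δ, which is 79.2% of the first list and 55.5% of the second. All 96 had a positive difference in the second comparison, with medians of 1.75 in the first and 1.59 in the second on the log2 scale. In that second comparison 332 of all 381 intergenic ncRNAs were positive, with a median of 0.94, and 2736 of all 5947 tested genes. Shared calls were not counted over all genes. Across the 381 intergenic ncRNAs the 2 sets of differences had a Pearson correlation of 0.70, against 0.70 across all 5947 tested genes, a description over transcripts that share libraries within each comparison.

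**Figure D4:**
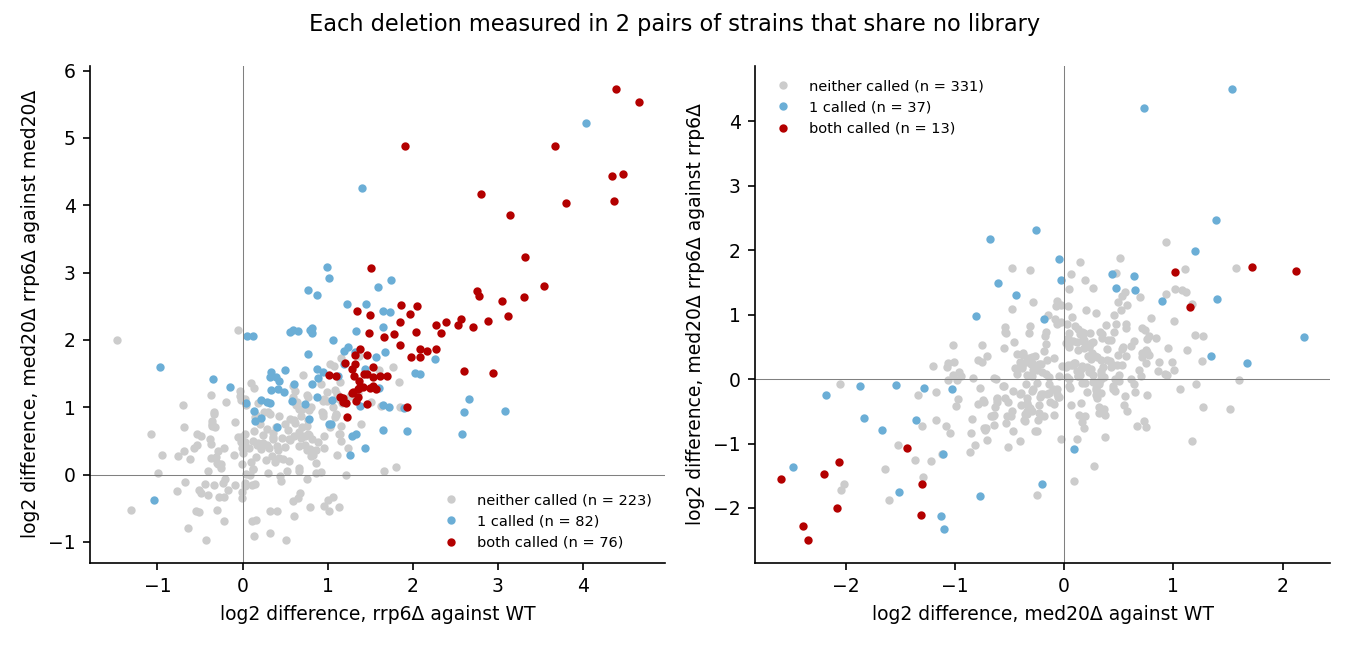
Log2 differences (limma, log2 of normalised count + 1) of 381 intergenic ncRNAs. The left panel sets the double mutant against med20Δ (y) beside rrp6Δ against WT (x), and the right panel sets the double mutant against rrp6Δ (y) beside med20Δ against WT (x). The 76 called in both comparisons of the left panel are all raised, and the 13 of the right panel are 4 raised and 9 lowered in both.

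Few intergenic ncRNAs were called in med20Δ, the strain without Med20 alone. In the authors' deposited table of med20Δ against WT, 4 of 439 intergenic ncRNAs were higher, or 0.911%, where 1.12% of all genes were higher, and 9 were lower, or 2.05%, where 1.25% of all genes were. limma called 8 higher, where 2.22% of all tested genes were, and 18 lower, where 2.1% of all tested genes were, out of 381. The 8 fell to 1 without med20Δ library 2, and to 3 without med20Δ library 1, WT library 2 or WT library 3. The 18 fell to 9 without WT library 2.

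Of the lowered transcripts, SPNCRNA.909 had 8.04, 8.46 and 11.8 normalised counts in med20Δ libraries, against 29.4, 80.3 and 76.0 in WT libraries, and was at 0.152-fold in the authors' deposited table (DESeq adjusted p = 0.0164). SPNCRNA.1278, between bgs4, a gene of glucan synthase, and sal3, a gene of a nuclear import receptor, had 41.1, 27.5 and 44.9 in med20Δ libraries, against 284, 203 and 205 in WT libraries. It was at 0.164-fold in the authors' deposited table (DESeq adjusted p = 7.69e-09). SPNCRNA.1609, which starts 356 bases from exg1, the gene of a cell wall glucanase, had 5.36, 10.6 and 13.9 normalised counts in med20Δ libraries, against 55.1, 53.6 and 50.7 in WT libraries, and was at 0.187-fold in the authors' deposited table (DESeq adjusted p = 0.000664). SPNCRNA.1299 had 10.7, 20.1 and 13.9 in med20Δ libraries, against 102, 57.4 and 56.2 in WT libraries, 0.208-fold in the authors' deposited table (DESeq adjusted p = 0.0031). In all 4 the med20Δ libraries lay below every WT library. The other 5, SPNCRNA.1311, SPNCRNA.1334, SPNCRNA.1310, SPNCRNA.1175 and SPNCRNA.916, were between 0.189-fold and 0.407-fold in the authors' deposited table, and their med20Δ libraries too lay below all WT libraries. Such separation was also counted for everything with a mean of at least 10 over both strains. The med20Δ libraries lay wholly below WT for 59 of 353 intergenic ncRNAs and 734 of all 5827 genes. They lay wholly above for 26 and 594.

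In the double mutant these 9 did not all have the same level. SPNCRNA.1278 had 41.1, 41.9 and 53.0 normalised counts in double-mutant libraries, against 143, 119.5 and 143 in rrp6Δ libraries, with no overlap. Its log2 difference was -1.56 (limma adjusted p = 0.00239). Separation between these strains was not counted over all genes. SPNCRNA.1609 had 11.2, 13.5 and 9.85 in double-mutant libraries, against 52.8, 77.5 and 50.9 in rrp6Δ libraries (-2.28 ± 0.36, SE, limma adjusted p = 0.0017). SPNCRNA.1299 instead had 64.1, 53.9 and 73.5 in double-mutant libraries, against 10.7, 20.1 and 13.9 in med20Δ libraries, a log2 difference of 2.06 (limma adjusted p = 0.00201). Against WT the double mutant was at 0.890-fold for it in the authors' deposited table (DESeq adjusted p = 0.857).

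**Figure D5:**
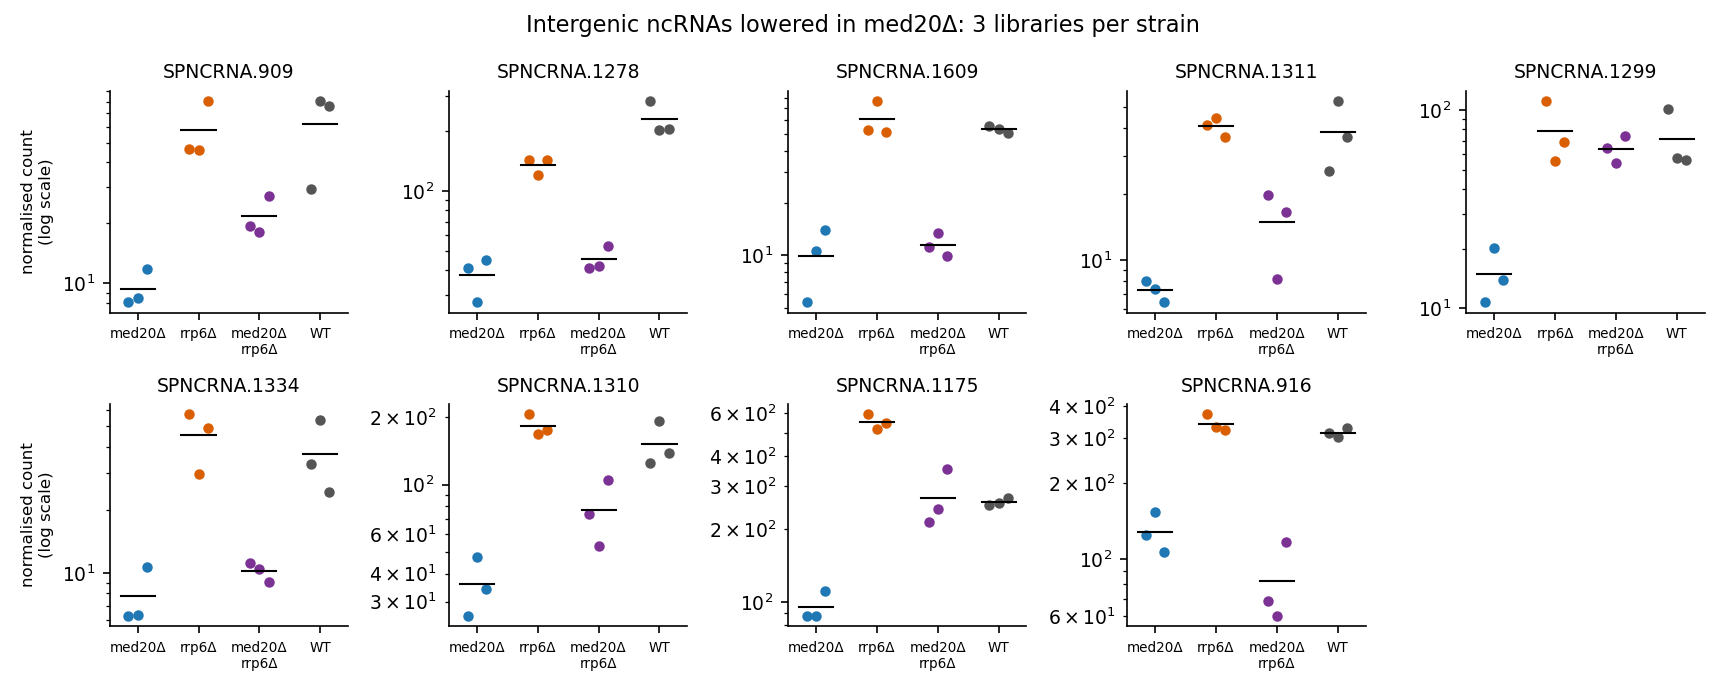
Normalised counts (log scale) of the 9 intergenic ncRNAs called lower in med20Δ; each point is 1 of 3 libraries, in med20Δ, rrp6Δ, the double mutant and WT, and the line is the mean. For SPNCRNA.1609 the med20Δ libraries sit between 5.36 and 13.9 and the double-mutant libraries between 9.85 and 13.5, against 50.7 to 55.1 in WT.

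Among their neighbours, SPBC800.11, whose gene lies 15 bases from SPNCRNA.1334 on the opposite strand, was also lower, with 68.0 in med20Δ against 253 in WT and a log2 fold change of -1.90 in the authors' deposited table (DESeq adjusted p = 0.000341). The gene alr2, 51 bases downstream of SPNCRNA.1310, had means of 8.65 in med20Δ and 133 in WT and was not called in the authors' deposited table (DESeq adjusted p = 0.52). For SPNCRNA.1278, sal3 had a log2 fold change of -0.14 in the authors' deposited table (DESeq adjusted p = 1). Coding neighbours within 1000 bases had median deposited log2 fold changes of -0.87 upstream (3 genes) and -0.57 downstream (5 genes). The median of all protein-coding genes was -0.03. Of the 8 lowered transcripts that RefSeq lists, 4 overlap a protein-coding gene on the opposite strand, as do 140 of all 416.

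TATAAA, the core of the TATA box, was sought on both strands in the 300 bases from 250 before to 50 after each annotated start. It was present for 1 of the 8 lowered transcripts that RefSeq lists, SPNCRNA.1299, for 187 of all 416 (45.0%), and for 48.1% of protein-coding genes. The start regions of SPNCRNA.1299 (chrIII:2448514-2448813, plus strand) and SPNCRNA.1609 (chrII:3514198-3514497, minus strand) are given 5′ to 3′ as the one with a match, in capitals, and one without.

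SPNCRNA.1299: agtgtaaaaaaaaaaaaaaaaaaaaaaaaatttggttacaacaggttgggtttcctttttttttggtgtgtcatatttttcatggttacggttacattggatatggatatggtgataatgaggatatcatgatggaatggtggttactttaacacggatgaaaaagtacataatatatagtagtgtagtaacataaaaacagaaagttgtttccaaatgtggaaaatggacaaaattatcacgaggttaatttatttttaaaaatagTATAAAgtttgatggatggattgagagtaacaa

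SPNCRNA.1609: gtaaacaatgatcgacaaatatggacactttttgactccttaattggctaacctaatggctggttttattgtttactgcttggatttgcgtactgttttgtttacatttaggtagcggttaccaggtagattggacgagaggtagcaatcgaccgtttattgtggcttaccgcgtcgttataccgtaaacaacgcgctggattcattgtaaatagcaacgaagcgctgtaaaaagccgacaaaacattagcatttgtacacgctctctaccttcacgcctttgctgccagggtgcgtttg

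With 8 sequences this is a description only. CCAAT, sought in the same way, was present for 5 of the 8 lowered transcripts and for 42.3% of all 416.

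The 4 raised in med20Δ were SPNCRNA.1676, SPNCRNA.911, SPNCRNA.1038 and SPNCRNA.679. SPNCRNA.1676 had 113, 103 and 47.1 normalised counts in med20Δ libraries, against 18.0, 17.2 and 18.7 in WT libraries, and was 4.86-fold higher in the authors' deposited table (DESeq adjusted p = 0.0102). It starts 29 bases from lea1, which encodes a protein of the U2 snRNP, and ends 81 bases before the protein kinase gene ppk22, and neither gene was called in the authors' deposited table (DESeq adjusted p = 0.953 and 1). SPNCRNA.911 had 70.5, 61.4 and 35.3 in med20Δ libraries, against 18.0, 10.5 and 19.8 in WT libraries, and was 3.46-fold higher in the authors' deposited table (DESeq adjusted p = 0.0149). In both, every med20Δ library lay above every WT library. SPNCRNA.1038 had 128, 177 and 182 in med20Δ libraries, against 48.4, 81.3 and 30.8 in WT libraries, also without overlap (3.03-fold in the authors' deposited table, DESeq adjusted p = 0.00459). SPNCRNA.679 had 255, 202 and 187 normalised counts in med20Δ libraries, against 97.8, 66.0 and 80.4 in WT libraries. The authors' deposited table gives it 2.64-fold (DESeq adjusted p = 0.00749), and its 3 rrp6Δ libraries held 77.1, 44.5 and 39.2.

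Setting the double mutant against rrp6Δ asks what loss of Med20 does where Rrp6 is already missing. limma called 21 of 381 intergenic ncRNAs higher, where 4.44% of all tested genes were higher, and 16 lower, where 4.51% of all tested genes were lower. The numbers higher fell to 8 without rrp6Δ library 3 or double-mutant library 1 and to 11 without rrp6Δ library 1. The numbers lower fell to 9 without double-mutant library 1 or any single rrp6Δ library. Without the 4 libraries that stood apart, 36 were higher and 26 lower. SPNCRNA.727 again had the largest difference, 4.51 ± 0.46 on the log2 scale (SE, limma adjusted p = 5.71e-05).

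A pair of transcripts near an end of chromosome II were also among the 6 raised most. SPNCRNA.1304 had 136, 48.7 and 45.5 normalised counts in double-mutant libraries, against 3.57, 4.95 and 0.834 in rrp6Δ libraries, a log2 difference of 4.21 ± 0.64 (SE, limma adjusted p = 0.00131). SPNCRNA.1303 had 101, 29.9 and 40.2 in double-mutant libraries, against 9.28, 14.0 and 5.84 in rrp6Δ libraries, a difference of 2.31 ± 0.48 (limma adjusted p = 0.00969). Neither overlapped between the strains, but both were picked for large called differences, and such separation was not counted over all genes. The gene cmt2, 200 bases downstream of SPNCRNA.1303 on the opposite strand and overlapped by SPNCRNA.1304, had a log2 fold change of 2.69 in the double mutant and of 2.03 in med20Δ by the authors' deposited tables (DESeq adjusted p = 0.0323 and 0.00228). The gene upstream of both, SPBPB21E7.11, had 4.26 in the double mutant by the authors' deposited table (DESeq adjusted p = 6.3e-05). SPNCRNA.821, SPNCRNA.917 and SPNCRNA.602 made up the 6, with log2 differences of 2.47 ± 0.67, 2.17 ± 0.48 and 1.98 ± 0.58 (SE, limma adjusted p = 0.0361, 0.0123 and 0.0493). SPNCRNA.821 had 56.6, 23.2 and 18.9 normalised counts in double-mutant libraries and 5.71, 12.4 and 0.834 in rrp6Δ libraries, and its 3 WT libraries were at the floor of 1 count, so the double mutant was at least 32.8-fold above WT (floor of 3 counts over the strain, DESeq adjusted p = 0.00375 in the authors' deposited table).

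SPNCRNA.1379, SPNCRNA.1124, SPNCRNA.1609, SPNCRNA.1510, SPNCRNA.916 and SPNCRNA.1334 fell most against rrp6Δ. SPNCRNA.916 had 68.4, 59.9 and 117 normalised counts in double-mutant libraries, against 373, 332 and 322 in rrp6Δ libraries, a log2 difference of -2.11 ± 0.25 (SE, limma adjusted p = 0.000246). SPNCRNA.1510 had 58.7, 20.2 and 46.2 in double-mutant libraries, against 178, 161 and 170.1 in rrp6Δ libraries, a difference of -2.13 ± 0.36 (limma adjusted p = 0.00273). SPNCRNA.1124, at 4.27, 5.24 and 2.27 in double-mutant libraries and 22.8, 24.7 and 20.9 in rrp6Δ libraries, rests on few counts. In each of the 3 the strains did not overlap. They were picked for large called differences, and separation between these strains was not counted over all genes. SPNCRNA.1379, with a difference of -2.50 ± 0.61 (limma adjusted p = 0.0218), had its highest value in each of these strains in the library that stood apart, 21.7 of the double mutant and 119.5 of rrp6Δ.

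Med20Δ against WT and the double mutant against rrp6Δ share no library. Of the 8 that limma called higher in med20Δ and the 21 higher in the double mutant, 4 were the same, SPNCRNA.911, SPNCRNA.976, SPNCRNA.1236 and SPNCRNA.1676, or 50% of the first list and 19.0% of the second. Of the 18 and 16 called lower, 9 were the same, or 50% of the first list and 56.2% of the second. These were SPNCRNA.675, SPNCRNA.916, SPNCRNA.1175, SPNCRNA.1278, SPNCRNA.1310, SPNCRNA.1311, SPNCRNA.1334, SPNCRNA.1379 and SPNCRNA.1609. All 26 kept their direction in the second comparison. There 214 of all 381 intergenic ncRNAs and 2734 of all 5947 tested genes had a positive difference. Shared calls were not counted over all genes. The Pearson correlation of the differences was 0.55 across the 381 intergenic ncRNAs and 0.59 across all tested genes.

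SPNCRNA.1236 was higher in each mutant than in WT. In med20Δ it was called higher by limma but not in the authors' deposited table. It had 348, 534 and 528 normalised counts in med20Δ libraries, 869, 886 and 752 in rrp6Δ libraries, 3284, 2438 and 2331 in double-mutant libraries, and 297, 198 and 203 in WT libraries. The libraries of each strain lay wholly above those of the next, in the order double mutant, rrp6Δ, med20Δ and WT. SPNCRNA.1175 was the only intergenic ncRNA called in opposite directions against WT. It had 87.5, 87.8 and 111 normalised counts in med20Δ libraries, 596, 519 and 548 in rrp6Δ libraries, 214, 242 and 353 in double-mutant libraries, and 251, 257 and 269 in WT libraries. The authors' deposited tables give log2 fold changes of -1.44 in med20Δ (DESeq adjusted p = 0.00462), 1.10 in rrp6Δ (DESeq adjusted p = 0.0187) and 0.06 in the double mutant (DESeq adjusted p = 0.983), and the double-mutant libraries lay on both sides of WT.

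Whether the effect of 1 deletion depended on the other was tested by the interaction in limma. It called 0 of 381 intergenic ncRNAs, where 0.151% of all tested genes were called higher and 0.101% lower, with 40 at an unadjusted p under 0.05, of which 30 were positive. Over all 5947 tested genes 415 were at such a p, of which 220 were positive. SPNCRNA.727 had the smallest p, with an interaction of 2.97 ± 0.65 (SE, limma adjusted p = 0.106): the double mutant exceeded the sum of the 2 single changes on the log2 scale. SPNCRNA.1304 and SPNCRNA.917 had interactions of 3.48 and 2.85 (limma adjusted p = 0.213 and 0.133). The number called was 1 without med20Δ library 2.

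The 416 that RefSeq lists had a median annotated length of 954 bases (219 to 5123) and a median GC content of 33.7%. By length, in the authors' deposited table of rrp6Δ, 12 of 47 under 500 bases were higher (25.5%), 41 of 174 from 500 to under 1000 bases (23.6%), 30 of 153 from 1000 to under 2000 bases (19.6%) and 5 of 42 of 2000 bases or more (11.9%). The matching median WT means were 10.3, 25.1, 52.5 and 144 in the authors' deposited table, so length and level moved together and were not separated. Of the 110 with a note of a possible UTR, 15 were called higher in rrp6Δ, or 13.6%, and of the 329 without it 78, or 23.7%. Chromosomes I, II and III had 20.7%, 19.9% and 24.2% called higher. Of the 20 within 100 kb of a chromosome end, 6 were.

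The upstream protein-coding neighbour stood on the opposite strand for 309 of the 416, and within 500 bases for 161 of these. Of those 161, 40 were called higher in rrp6Δ in the authors' deposited table, or 24.8%, against 48 of the other 255, or 18.8%. The calls of the neighbouring genes were counted. Of 53 upstream coding neighbours within 1000 bases of a transcript raised in rrp6Δ, 3 were called higher and 1 lower in the authors' deposited table, and of 50 downstream ones 1 was called higher and 1 lower, where 83 of all 5118 protein-coding genes were called higher and 62 lower. SPNCRNA.814 has a neighbour that was called higher. Its upstream neighbour meu43, 152 bases away on the opposite strand, had a log2 fold change of 2.49 in the authors' deposited table (DESeq adjusted p = 2.49e-06).

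Mmi1, an RNA-binding protein that hands meiotic transcripts to the nuclear exosome in growing cells, binds UNAAAC, where N is any base. The matching letters TNAAAC on the RNA's own strand occurred at a median of 2.16 per kilobase in the 88 listed transcripts called higher in rrp6Δ and 1.94 in the 327 not called. At least 1 was present in 78.4% and 80.4% of them, against 80.0% of all 416. TATAAA occurred in the start region of 42.0% of the 88.

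The genes of the surveillance machinery itself were counted too. The 37 names listed for the exosome and nuclear RNA surveillance matched 36 measured genes. In the authors' deposited tables none was called in med20Δ, red1 was called higher and rrp6 lower in rrp6Δ, and rrp6, dis3 and mtr4 were called lower in the double mutant, that is 3 of 36, where 6.71% of all genes were lower there. limma called 2 of the 36 higher and 7 lower in the double mutant, where 15.5% of all tested genes were higher and 14.7% lower. The gene red1, which encodes a zinc-finger partner of Mmi1, had a log2 fold change of 1.00 in rrp6Δ (DESeq adjusted p = 0.0301), and dis3, the other exosome nuclease, and mtr4, its helicase, had -1.17 and -1.12 in the double mutant (DESeq adjusted p = 0.0123 and 0.0162) in the authors' deposited tables. The 27 names listed for Mediator matched 21 measured genes. Besides med20, the authors' deposited tables call med18, another head subunit, lower in rrp6Δ (log2 fold change -1.24, DESeq adjusted p = 0.00588) and in the double mutant (-1.22, DESeq adjusted p = 0.0174), and no other. limma called 1 of the 21 higher and 4 lower in the double mutant. The median log2 fold change of the 36 surveillance genes was -0.11 in med20Δ, -0.06 in rrp6Δ and -0.25 in the double mutant, and that of the 21 Mediator genes -0.10, -0.10 and -0.14, in the authors' deposited tables. Over all genes it was -0.003, -0.04 and -0.03 there, and over protein-coding genes -0.03, -0.12 and -0.18.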

How the data were processed

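Poly(A) RNA of 12 samples from 4 strains was compared. Bowtie 0.12.7 and DESeq are named as tools, per the submitters' processing notes. No source used here names the genome build, annotation or counting program. Per the file headers, the authors deposited for each gene the mean normalised signal of each strain (counts divided by a size factor), the fold change as a ratio, the log2 fold change, and p-values with and without adjustment. No column belongs to a single library. Each deposited mean was therefore split into the 3 whole counts that give its digits, which worked for 96.5% to 97.2% of means and for 436 intergenic ncRNAs in all 12 libraries. In simulated means no split was wrong. The lowest count of any library is 1, so 3 counts per strain is the floor.

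Counts were divided by the recovered size factors, and log2(value + 1) was tested with limma 3.58.1 (R 4.3.3, trend, Benjamini-Hochberg) for 5947 genes with a mean of at least 10. Tested on simulated counts, limma recovered 82% of 2-fold rises and 70% of 2-fold falls for med20Δ against WT (5717 genes), 88% and 84% for rrp6Δ (5704 genes), and 80% and 82% for the double mutant (5719 genes). The genes changed in the simulation all had a WT mean of at least 50, and all genes were given the same relative spread. The median intergenic ncRNA had 34.2 in WT, so these shares do not measure recovery for most of them. Calls against WT are the authors' at an adjusted p under 0.05, and those between mutants and of the interaction are limma's. Alternatives were other thresholds, filters, pseudocounts, size factors and single libraries left out. Positions, sequences and neighbours come from RefSeq, matched by locus tag for 416 of 439. The transcripts and gene lists were chosen with earlier results of these data known. Named are, per comparison and direction, up to 8 called transcripts with the largest change and a mean of at least 50 in the higher strain (up to 6, with no minimum, between mutants), the one called in opposite directions, and the 8 with the most counts in WT. The names of SPNCRNA.675, SPNCRNA.976, SPNCRNA.1236, SPNCRNA.1246, SPNCRNA.1311 and the 6 snoRNA-bearing transcripts, and any interactions printed, were chosen after their values were seen.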

Additional observations from a re-analysis of the deposited data

How the results depend on the processing

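Counts are of intergenic ncRNAs called unless a list is named. At an adjusted p under 0.01 the authors' tables gave 2 higher in med20Δ, 58 higher and 0 lower in rrp6Δ, and 4 lower in the double mutant. At an adjusted p under 0.05, limma gave 8 higher and 18 lower in med20Δ against WT, and 18 lower in the double mutant against WT. With limma restricted to means of at least 50, 10 were lower in med20Δ, 63 higher in rrp6Δ, 91 higher and 11 lower in the double mutant against WT, 89 higher against med20Δ, and 11 higher and 8 lower against rrp6Δ, since fewer genes were tested. Median-of-ratios size factors gave 1 lower in the double mutant against med20Δ, and no filter gave 1 positive interaction. Without the 4 libraries that stood apart, a choice made after seeing the data, 3 were lower against med20Δ, and 36 were higher and 26 lower against rrp6Δ. Among surveillance genes limma called 1 lower in med20Δ, 2 higher in rrp6Δ, and 2 higher and 7 lower in the double mutant; among Mediator genes it called 1 higher and 4 lower there. The cause of these shifts was not tested except where named.

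With each library left out in turn, limma gave 1 to 9 higher and 9 to 22 lower in med20Δ, 54 to 98 higher and 0 to 1 lower in rrp6Δ, 112 to 160 higher and 11 to 20 lower in the double mutant against WT, 70 to 146 higher and 0 to 1 lower against med20Δ, 8 to 25 higher and 9 to 21 lower against rrp6Δ, and 0 to 1 positive and 0 to 0 negative interactions. For 40 named transcripts, 1386 values were recomputed: 1274 kept direction and side of the threshold, 50 lost and 20 gained the call, 42 uncalled values moved across 0, and no called value changed sign. Re-centring on the median protein-coding gene, other pseudocounts, leaving out possible UTRs and leaving out the snoRNA-bearing and ribosomal DNA transcripts kept the counts of called transcripts within 1.5-fold. No paired analysis was possible because the recovered libraries cannot be matched to the replicate letters of the labels. Low counts limit the transcripts near the floor of 1 count per library.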
